A study of Drosophila melanogaster with 4 samples.

Results

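The regions described here are 542 narrow Ribbon (Rib) peaks that were called with the fkh-Gal4 driver, had no overlapping peak with the sage-Gal4 driver, and lay at the ends of protein-coding genes. They were chosen by their measured positions: a peak of the fkh-Gal4 list on chromosomes 2, 3, 4 or X was kept where it overlapped no sage-Gal4 peak, lay outside the histone gene array and the 5S rRNA gene array, and overlapped the 1 kb on either side of a start or end of a protein-coding gene. The fkh-Gal4 list holds 4196 peaks and the sage-Gal4 list 907, or 5103 in all. Of the fkh-Gal4 peaks, 3245 lay on these chromosomes and 214 of them fell in the 2 arrays, which left 3031. Of these, 2488 overlapped no sage-Gal4 peak, and 542 of the 2488 met the gene-end rule.

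The assay was ChIP-seq for GFP in Drosophila melanogaster embryos that carried UAS-rib-GFP, a transgene of Rib joined to green fluorescent protein, under fkh-Gal4 in one group (fkh-Gal4::UAS-rib-GFP) and under sage-Gal4 in the other (sage-Gal4::UAS-rib-GFP). Both groups were collected over 8 h, aged for 11 h, isolated with an embryo sorter at stages 11 to 16 and fixed in 1.8% formaldehyde, and the libraries were read at 50 bp. Each driver has 1 immunoprecipitation and 1 input, each merging 3 collections; the inputs' files were not analysed. In both groups the Gal4 driver decided which cells made the tagged protein, which came from a transgene in addition to the embryo's own rib gene, and whole embryos were the source of the chromatin. No wild-type embryo or embryo without Gal4 was among the samples used here.

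Rib acts in the nucleus and combines a BTB domain, which joins proteins to each other, with a Pipsqueak domain that contacts DNA. Embryos without it form salivary glands and tracheae that fail to elongate normally. The fkh gene encodes a FoxA-type transcription factor of the salivary gland and gut, and sage encodes a basic helix-loop-helix factor of the salivary gland, so the drivers share the salivary gland but need not share other cells.

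Each list gives positions without heights, scores or read counts. With 1 merged list per driver, spread between replicates could not be measured, and no test of one driver against the other was run. Intervals are exact 95% binomial intervals that cover counting error only. Since the depth of both libraries is unknown, the lack of an entry in the shorter sage-Gal4 list does not show that Rib was not there in those embryos. The gene table gives the outermost start and end of each gene without its strand. A gene end below can therefore be a promoter or a 3′ end, and promoters inside a gene are not covered.

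The 542 peaks were crowded against the gene ends themselves. Of them, 210 covered an end (38.7%, interval 34.6 to 43.0%), and 275 had their centre within 100 bp of one (50.7%, interval 46.4 to 55.0%), although sequence within 100 bp of an end makes up only 15.3% of the 1 kb windows. Those 275 peaks had 275 different nearest genes. For comparison, within 25 bp of an end lay 103 of the 542 centres (19.0%, interval 15.8 to 22.6%) and 4.14% of the window sequence, and within 500 bp lay 409 centres (75.5%) and 61.3% of the sequence. The median distance from the centre to the nearest end was 97.5 bp, with quartiles of 32.5 and 493 bp.

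The crowding ended well inside the window. Counted by the gap between the peak's edge and the nearest end, 95 peaks of the fkh-Gal4 list without a sage-Gal4 overlap lay 1 to 100 bp away. In the next 9 steps of 100 bp the count ranged from 17 to 34, and in the 10 steps beyond the 1 kb limit it ranged from 11 to 23. The last peaks inside the limit lay 989 bp from an end of Not1, 990 bp from an end of CG7110 and 991 bp from an end of CG7458. The first peaks outside it lay 1001 bp from AGO3, 1010 bp from Est-Q and 1015 bp from Act5C. The outer peaks are thus a continuous spread that the limit cuts, while the peaks near the ends form a mode of their own.

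**Figure D1:**
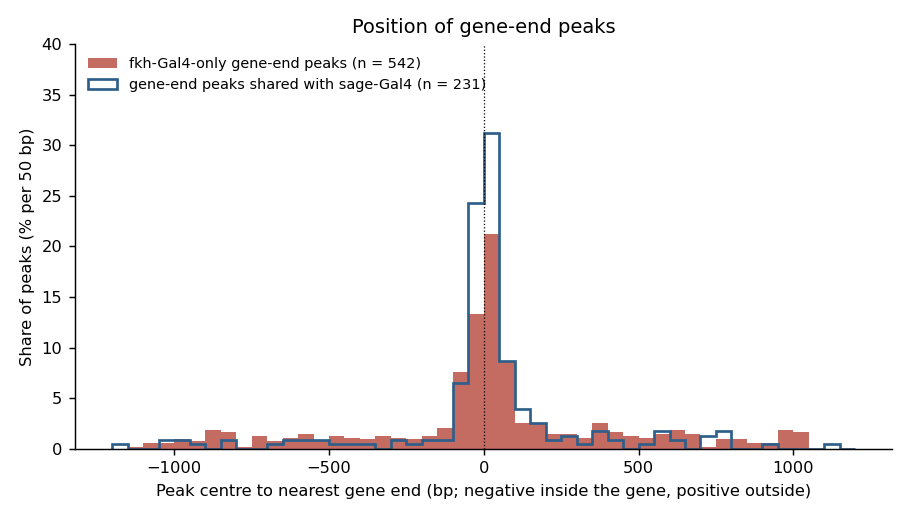
Share of peaks in each 50 bp step (vertical axis, percent) by the distance of the peak centre from the nearest gene end (horizontal axis, bp, negative inside the gene). Filled bars are the 542 fkh-Gal4-only gene-end peaks and the outline is the 231 gene-end peaks shared with sage-Gal4; both gather within 100 bp of the end, with 50.7% and 71.0% of their centres there.

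The peaks lay on both sides of the ends, and less often inside genes than the windows do. A centre fell in the body of some gene for 276 of the 542 peaks (50.9%, interval 46.6 to 55.2%), while gene bodies make up 73.3% of the window sequence. Relative to the nearest gene alone, the centre lay outside the nearest gene for 308 of the 542 peaks (56.8%, interval 52.5 to 61.0%) and inside it for 234. Among the 275 peaks within 100 bp the share outside was 58.2% (interval 52.1 to 64.1%). Many ends faced a neighbour: 298 peaks had 1 gene within reach, 220 had 2, 21 had 3 and 3 had 4. Only 15 of the 542 peaks covered the ends of more than 1 gene.

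Gene-end peaks shared by both drivers lay still closer to the ends. Of the 231 shared gene-end peaks, 144 covered an end (62.3%, interval 55.7 to 68.6%) and 164 were centred within 100 bp of one (71.0%, interval 64.7 to 76.8%); neither interval meets that of the 542 peaks, and no test was run. Shared peaks were also wider, with a median of 140 against 111 bp, and a wider peak covers an end more readily. Many shared peaks lay at genes of cytoplasmic ribosomal proteins. With the peaks at those genes left out of both sets, a comparison chosen after the data were seen, 65.2% of 181 shared peaks (interval 57.8 to 72.1%) and 50.1% of 533 fkh-Gal4-only peaks (interval 45.8 to 54.4%) were within 100 bp. Being at a gene end was also more frequent among shared peaks, at 231 of 543 (42.5%, interval 38.3 to 46.8%), than among fkh-Gal4-only peaks, at 542 of 2488 (21.8%, interval 20.2 to 23.5%). The windows cover 24.6% of the arms, so the second share is somewhat below the share of the arms that the windows take up. Counted by peak centre, which is closer to a measure of coverage, it was 21.1%. The pattern of these peaks thus lies in where they fell within the windows.

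The peaks were narrow. Their median width was 111 bp, with quartiles of 86 and 153 bp and a range from 70 to 530 bp, against a median of 140 bp in the shared gene-end peaks, 116 bp in fkh-Gal4-only peaks inside genes and 117 bp in those between genes. Width rose little with distance from the end: the median was 107 bp within 100 bp of the end, 113.5 bp from 100 to 500 bp, and 120 bp beyond. Across the 542 peaks Spearman's rho of width with distance was 0.15, given as a description of peaks from 1 library. Width is not a measure of occupancy here, since the lists hold no heights.

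**Figure D2:**
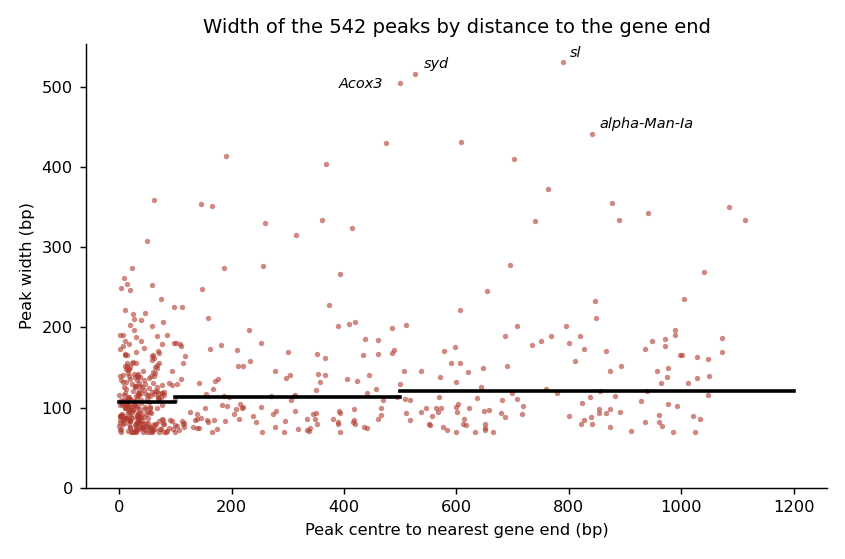
Width of each of the 542 peaks (vertical axis, bp) against the distance of its centre from the nearest gene end (horizontal axis, bp); black lines are the medians within 100 bp, from 100 to 500 bp and beyond. The peaks crowd the left edge, the medians differ little, and the widest, at sl, syd and Acox3, lie 500 bp or more from the end.

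Wide peaks occurred both at the ends and away from them. The median width was 115 bp for the 210 peaks that covered an end and 105.5 bp for the 332 that covered none. A wider peak covers an end more readily, so this difference is partly fixed by the measure. Of the 15 widest, 11 were centred more than 300 bp from an end, 4 covered one, and 5 were on the X chromosome. The widest of all, 530 bp at X, 16349261 to 16349790, was centred 789.5 bp from an end of small wing (sl), the fly phospholipase C-gamma. Next came a peak of 516 bp at 3L, 7916918 to 7917433, at sunday driver (syd), an adaptor of axonal transport. A peak of 505 bp on 2L was centred 500 bp inside the gene of Acox3, a peroxisomal acyl-CoA oxidase, with Fic also within reach. The peak at alpha-Man-Ia, a Golgi mannosidase that trims N-glycans, was 441 bp wide, and one at Dsp1, an HMG-box protein that acts with Polycomb group factors, was 403 bp. The others of the 15, from 350 to 431 bp, were at Ag5r2, CG12446, CG1090, dpr3, Mst57Da with alpha4GT2, CG9331, CG17192, Lime, Obp73a with Ogdh, and COX7AL2.

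At the other extreme, 10 peaks were centred within 2 bp of an end. The peak at Sfmbt, a Polycomb group protein, was 115 bp wide at 2L, 13176728 to 13176842, and its centre was on the gene's outermost base. So was that of the 77 bp peak at puckered (puc), the phosphatase that restrains JNK signalling in the epidermis. Peaks at Asap with Nup50, at CCKLR-17D3 and at Hil with CG9945 were centred 1 bp from an end, and that at CG5003 with mRpS22 was 1.5 bp away. Those at Notum, a secreted enzyme that inactivates Wnt ligands, at scabrous (sca), a secreted modulator of Notch signalling, at CG31710 and at Rme-8 with Rab32 were 2 bp away. These are genes of unrelated functions, and what they have in common here is the position of the peak.

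Most of the 542 peaks had no sage-Gal4 peak within 10 kb. The median gap was 48426 bp, with quartiles of 15541 and 124582 bp. Within 100 bp of a sage-Gal4 peak lay 8 peaks (1.48%), within 1 kb 32 (5.9%) and within 10 kb 107 (19.7%). For fkh-Gal4-only peaks inside genes the median gap was 57107 bp and for those between genes 64059 bp, so wide gaps were not particular to the gene-end peaks. The sage-Gal4 list holds only 907 peaks, and the gap from positions picked at random was not measured. Another fkh-Gal4 peak lay within 500 bp of 55 of the 542 peaks, and for 10 of the 55 it was one shared with sage-Gal4.

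**Figure D3:**
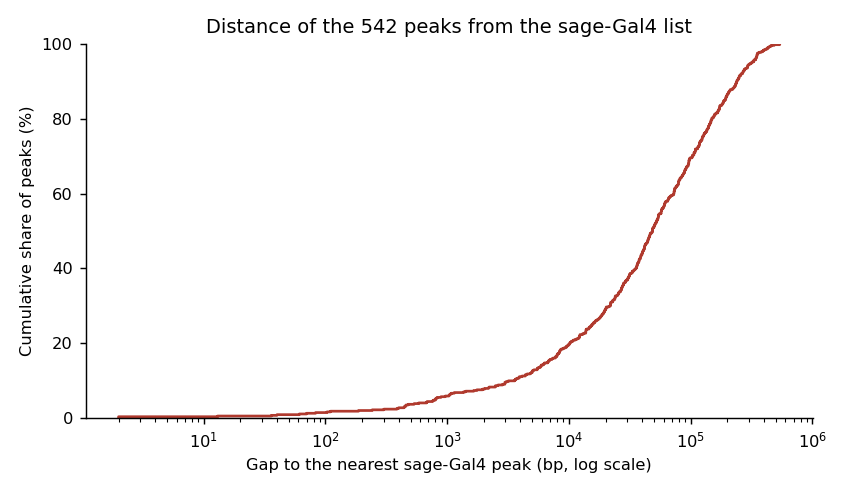
Cumulative share of the 542 peaks (vertical axis, percent) by the gap to the nearest sage-Gal4 peak (horizontal axis, bp, log scale). The curve reaches 5.9% at 1 kb and 19.7% at 10 kb. The sage-Gal4 list is short, and no curve for random positions is drawn.

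The 10 peaks closest to the sage-Gal4 list missed it by 2 to 110 bp. At crumbs (crb), the apical determinant of epithelia, the fkh-Gal4 peak ran from 24295123 to 24295231 on 3R and the sage-Gal4 peak from 24294966 to 24295120, with 2 bp between them. The gap was also 2 bp at CG12896, 13 bp at CG13739, 36 bp at pxb, 40 bp at Trf2, which encodes a TBP-related factor of core promoters, and 61 bp at capricious (caps), a leucine-rich-repeat adhesion protein. It was 70 bp at Hsp70Ba, 83 bp at CG14187, 103 bp at CG42788 with CG6966, and 110 bp at CG33500. On the other side of the rule, shared gene-end peaks at SP1173, Gliotactin (Gli), Tsp42Ea with CG30159, Psc, and Sc2 with Ubi-p63E overlapped a sage-Gal4 peak by only 8, 9, 11, 11 and 22 bp. At crb, CG12896 and the shared peaks with the smallest overlaps, the sorting into fkh-Gal4-only and shared rests on few bases. The gaps of 36 to 110 bp compare with a median peak width of 111 bp. At Hsp70Ba a separate fkh-Gal4 peak, 61 bp from the fkh-Gal4-only one, is shared with sage-Gal4.

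A gene is called reached below where 1 of the 542 peaks overlaps the 1 kb around either of its ends. By this measure 751 of 13922 protein-coding genes (5.39%) were reached. By the stricter measure, that the gene's own end is the nearest to the peak centre, 506 (3.63%) were. Equally near ends of different genes were counted for a single gene. Shared gene-end peaks reached 355 genes (2.55%), among them 28 of the 751 (3.73%, interval 2.49 to 5.34%). Sage-Gal4 peaks of any kind, shared or not, reached 566 genes (4.07%), among them 50 of the 751 (6.66%, interval 4.98 to 8.68%). A sage-Gal4 peak lay at an end or in the body of 90 of the 751 genes (12%, interval 9.75 to 14.5%), against 782 of all 13922 genes (5.62%).

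The reached genes were long. Their median length was 5087 bp, and that of the 227 genes with a covered end was 8145 bp, against 2163 bp over all protein-coding genes and 3790 bp for the genes reached by shared peaks. Over the gene groups described next, the median length was 9093 bp for salivary gland, tracheal and epithelial genes, 7364 bp for signalling and patterning genes and 1381 bp for housekeeping genes. The part of gene length in the groups' counts was not tested.

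Genes of salivary gland, tracheal and epithelial formation were reached more often than the background, and mostly as the nearest gene. Over 8 such lists, 26 of 149 genes were reached (17.4%, interval 11.7 to 24.5%, against 5.39%), and 24 of those 26 were the nearest gene (16.1% of the 149, against 3.63%). These lists were salivary gland transcription factors, salivary products and enzymes, salivary tube, polarity, septate junction, tracheal development, tracheal and lumen matrix, and actin cytoskeleton genes. The secretory pathway list (3 of 39, 7.69%) and the epidermal markers (1 of 14, 7.14%) were not among them. Over 11 lists of signalling and patterning genes, 20 of 143 were reached (14.0%, interval 8.76 to 20.8%) and 17 as the nearest gene. Over 7 lists of ribosome, translation, proteasome, respiration and mRNA-processing genes, 33 of 410 were reached (8.05%, interval 5.61 to 11.1%), but only 11 as the nearest gene (2.68%). At eIF4G2 and HisRS a neighbour's end was equally near, and the tie was counted for the neighbour. Sage-Gal4 peaks of any kind also reached all 3 groups above their own background of 4.07%, at 19 of 149 (12.8%), 22 of 143 (15.4%) and 70 of 410 genes (17.1%). This grouping of the lists was made after their values were seen, and no test was run on it.

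Salivary tube genes were the most often reached of these 8 lists. Of 25 genes for tube size, invagination and migration, 9 were reached (36.0%, interval 18 to 57.5%), 8 of them as the nearest gene. Shared gene-end peaks reached 3 of the 25 and sage-Gal4 peaks of any kind 8, with 1 gene, crb, in both that count and the 9. The peak at 18 wheeler (18w), a Toll-family receptor that takes part in gland invagination, was 165 bp wide at 2R, 20111440 to 20111604, covered the end and had its centre 11 bp inside. The klarsicht (klar) peak, 139 bp at 3L, 540528 to 540666, covered an end of this gene for microtubule-based transport. Netrin-B (NetB), a secreted guidance cue for migrating glands, had a covering peak of 138 bp. Slit (sli), a repellent ligand for Robo receptors, had a peak at each end, a covering one of 132 bp at 2R, 15922060 to 15922191, and one of 124 bp at the far end that lay nearer to Rif1. All 4 of these genes thus had peaks at or over an annotated end, and the nearest sage-Gal4 peaks were between 15085 bp (18w) and 183807 bp (klar) away. The other genes reached were crb, given above, and Pvr, Moe, zip and mys, chosen after their values were seen. The PDGF- and VEGF-receptor-like Pvr had a covering peak of 100 bp; the peak of moesin, Moe, was 59.5 bp inside its end, that of the myosin heavy chain zip 510 bp inside, and that of the integrin subunit mys lay nearer to fs(1)h. With only the wider fkh-Gal4 peaks the count for this list fell to 4.

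Of 16 salivary gland transcription factor genes 3 were reached (18.8%, interval 4.05 to 45.6%, which holds the background of 5.39%), each as the nearest gene. At CrebA, a bZIP factor that raises the expression of secretory pathway genes, a peak of 153 bp at 3L, 15535252 to 15535404, covered the outermost end at 15535395, and the nearest sage-Gal4 peak was 194096 bp away. At fkh itself, whose regulatory sequence drives one of the Gal4 lines, a peak of 86 bp at 3R, 28585602 to 28585687, was centred 380.5 bp outside the gene, and the nearest sage-Gal4 peak was 172808 bp away. At SoxN, a Sox-family factor, a 127 bp peak covered an end. Among 14 genes of salivary gland products and enzymes 3 were reached (21.4%, interval 4.66 to 50.8%, which also holds the background). PH4alphaSG2, a prolyl hydroxylase subunit, had a 75 bp peak 40 bp outside its end, and sano had a 71 bp peak 338 bp outside. The sulfotransferase gene pipe (pip) had a covering peak of 168 bp. In the secretory pathway list 3 of 39 genes were reached, near the background: Calr and ERp60, both chaperones or folding enzymes of the endoplasmic reticulum, had covering peaks of 71 and 93 bp, and Sec61alpha was reached by a peak nearer to Daxx.

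None of the 542 peaks lay at rib or sage themselves. The rib gene held 3 fkh-Gal4 peaks and 1 sage-Gal4 peak in its body, away from its ends. The nearest fkh-Gal4 peak lay 19622 bp from sage and 44540 bp from lolal, which encodes another BTB-domain protein. Of 18 BTB and Pipsqueak-domain genes, ken, a BTB zinc-finger repressor, was the only one reached.

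Genes that polarise and join epithelial cells were also reached. Of 19 polarity genes 5 were reached (26.3%, interval 9.15 to 51.2%), all as the nearest gene. Shared gene-end peaks reached none of the 19, and sage-Gal4 peaks of any kind reached 2, crb included. Fasciclin 3 (Fas3), a cell adhesion protein, had a peak of 141 bp at 2L, 18320026 to 18320166, centred 6 bp from the end. Bazooka (baz), the fly Par-3, had a covering peak of 87 bp at X, 17159951 to 17160037, and a second one of 85 bp at its other end, nearer to TTLL1A. The peak of profilin, chic, was 460.5 bp inside the gene, and those of crb and Moe are given above. With only the wider fkh-Gal4 peaks the count for polarity genes fell to 1. In the septate junction list 3 of 23 genes were reached (13.0%, interval 2.78 to 33.6%, which holds the background): besides Fas3 these were the Ig-domain adhesion proteins Neuroglian (Nrg) and Lachesin (Lac), with covering peaks of 85 and 87 bp. Among 27 actin cytoskeleton genes 4 were reached (14.8%, interval 4.19 to 33.7%, which holds the background): chic, Moe, zip and, through its neighbour Vps29, capt.

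Tracheal lists had few reached genes, with intervals that hold the background of 5.39%. Of 18 tracheal and lumen matrix genes 3 were reached (16.7%, interval 3.58 to 41.4%): piopio (pio) had a peak of 261 bp at 2R, 24581124 to 24581384, centred 9 bp from the end, and dumpy (dpy) one of 118 bp centred 9.5 bp from the end; both encode zona pellucida domain proteins that tie cells to the matrix. The chitin deacetylase gene serpentine (serp) had a 139 bp peak centred 1049 bp outside. Shared gene-end peaks reached none of the 18 and sage-Gal4 peaks of any kind 1. Of 22 tracheal development genes 2 were reached (9.09%, interval 1.12 to 29.2%): grainy head (grh), a transcription factor of barrier epithelia, had a peak of 99 bp centred 219 bp outside one end and another of 139 bp beyond the other end, nearer to Orai. Uninflatable (uif), an apical membrane protein of tracheal cells, had one 459.5 bp inside. Shared gene-end peaks reached 3 of these 22 genes and sage-Gal4 peaks of any kind 4.

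**Figure D4:**
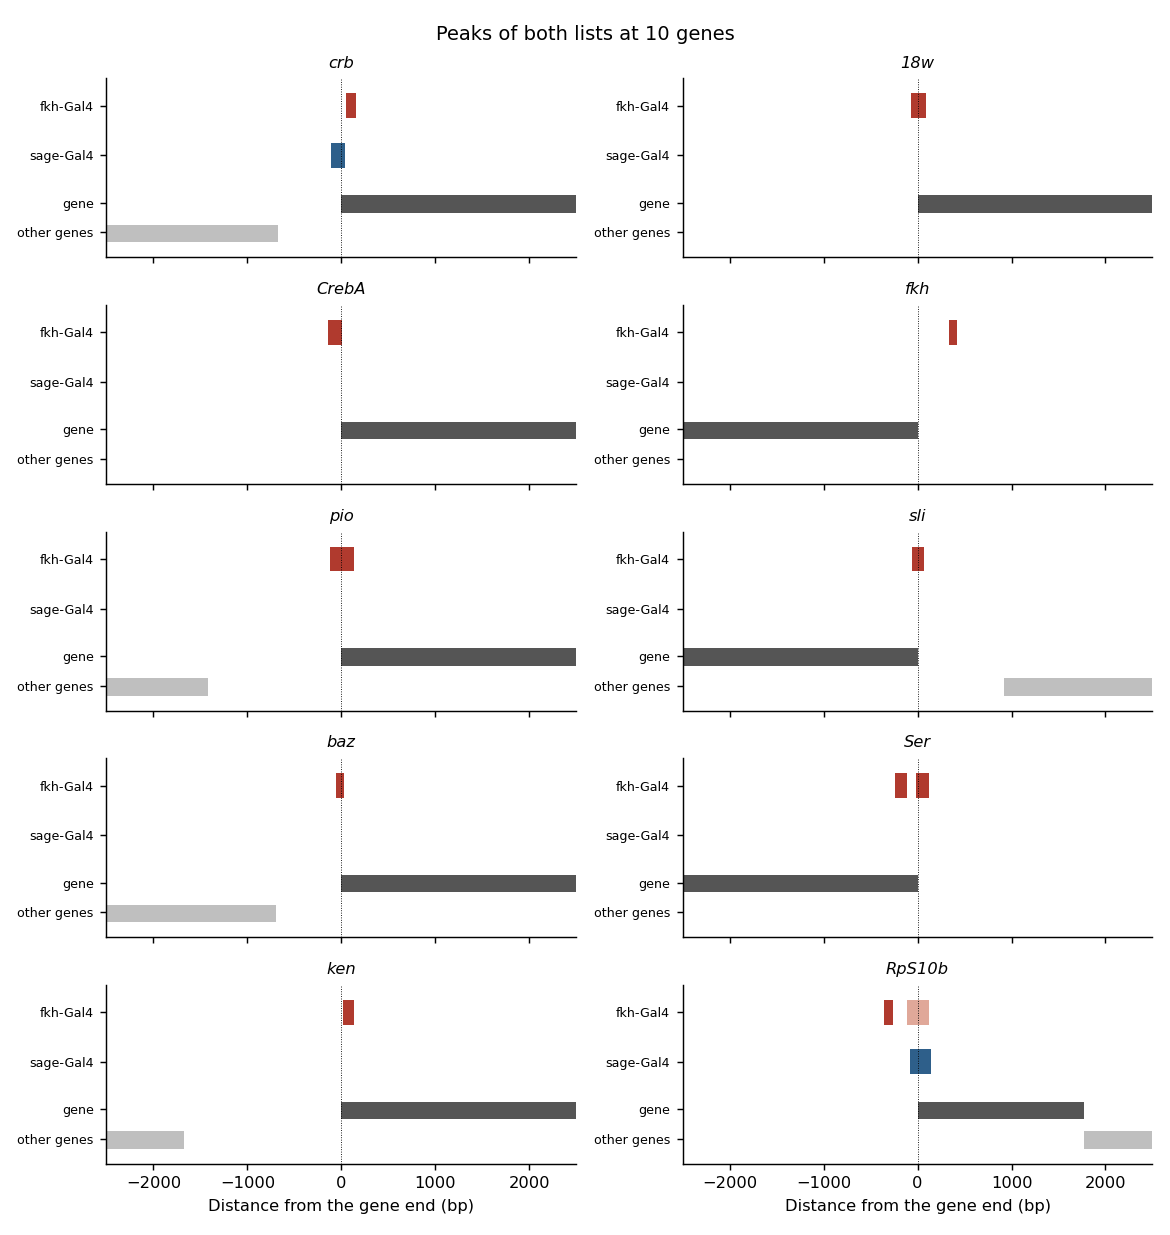
Peaks of the fkh-Gal4 list (dark red for the 542 peaks, pale red for others) and of the sage-Gal4 list (blue) around an end of 10 genes, with the gene in dark grey and its neighbours in light grey; the horizontal axis is the distance from that gene's end in bp. Peaks lie over or beside the end of each gene, a sage-Gal4 peak adjoins that of crb with 2 bp between them, and at RpS10b the fkh-Gal4-only peak lies beside a shared one.

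Receptors and ligands of several signalling pathways were reached, each at 1 or a few genes. Of 8 Toll receptor genes 3 were reached (37.5%, interval 8.52 to 75.5%, against 5.39%). Besides 18w, Tollo and Toll-6 had covering peaks of 150 and 114 bp on 3L, and the nearest sage-Gal4 peaks were 149401 and 250502 bp away. In the Notch list 3 of 14 genes were reached (21.4%, interval 4.66 to 50.8%, which holds the background). The ligand Serrate (Ser) had 2 peaks, of 136 and 139 bp, 95 bp apart, the second covering the end. At sca there was a covering peak of 173 bp, and fringe (fng), which modifies Notch with sugars, had one of 91 bp centred 3 bp from the end. Of 20 Wnt pathway genes 5 were reached. The glypican genes dally and dlp, whose products carry heparan sulfate and bind Wnt, had covering peaks of 138 and 106 bp, and the ligand gene Wnt5 had one of 103 bp. Axin (Axn) was reached only by a 146 bp peak nearer to Mgat2. The remaining gene, fz3, named after its values were seen, had a 70 bp peak centred 985.5 bp outside.

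Other pathway lists held few or none. In the Enhancer of split and Bearded complexes 3 of 17 genes were reached (17.6%, interval 3.8 to 43.4%, which holds the background), against 8 by sage-Gal4 peaks of any kind. A 246 bp peak covered an end of the Notch target gene E(spl)m7-HLH, and a 76 bp peak just outside groucho (gro), which encodes a corepressor, also reached E(spl)m8-HLH. The segment polarity gene slp1 had a covering peak of 113 bp, and patched (ptc), the Hedgehog receptor gene, was reached only through Acsl. In the EGFR and FGF list, argos (aos), a secreted inhibitor of the EGF receptor, was the only one of 23 genes, with a covering peak of 134 bp. No gene of the 14 in the Dpp and BMP list, the 9 in the JAK-STAT list or the 8 Hox genes was reached. Of 17 segmentation genes 3 were reached (17.6%, interval 3.8 to 43.4%, which holds the background). Besides slp1, the gap gene Krüppel (Kr) had a covering peak of 80 bp and the pair-rule gene odd one of 209 bp. The related gene bowl had a covering peak of 104 bp, so 2 of the 4 odd-skipped family genes were reached.

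Chromatin regulators and stress genes had counts of the same order. Of 20 Polycomb and Trithorax group genes 5 were reached (25%, interval 8.66 to 49.1%). A peak of 222 bp covered an end of ph-d, a subunit of Polycomb repressive complex 1, and peaks of 115 and 99 bp lay at Sfmbt and Su(z)2, the second 55 bp inside the gene. Moira (mor), a subunit of the Brahma remodelling complex, was reached by peaks of 70 and 141 bp nearer to Hel89B. Of 17 insulator and promoter factor genes none was reached. Of 8 apoptosis genes 2 were reached (25%, interval 3.19 to 65.1%, which holds the background), both being triggers of cell death. Reaper (rpr) had a covering peak of 183 bp and hid a peak of 113 bp centred 569 bp outside. The hid peak lay 457 bp from a sage-Gal4 peak, and a shared peak was centred 17.5 bp inside the same end of hid. With no sage-Gal4 peak allowed within 500 bp the count for apoptosis genes fell to 1. In the list of 17 immediate stress and ecdysone genes 3 were reached (17.6%, interval 3.8 to 43.4%, which also holds the background). They were puc, EcR, the ecdysone receptor gene, with a 99 bp peak 563 bp inside, and Hr3, reached by a 315 bp peak nearer to Hdc.

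Heat shock genes were reached by both kinds of peak. Of 27 genes 7 were reached by the 542 peaks (25.9%, interval 11.1 to 46.3%), 6 as the nearest gene, and 6 by shared peaks (22.2%, against 2.55% of all genes). Hsp70Ab had a peak of 225 bp covering its end and Hsp70Aa one of 181 bp 97 bp outside, 1593 bp apart on 3R; Hsc70-4, a constitutive chaperone, had a covering peak of 203 bp and Hsp26, a small heat shock protein gene, one of 129 bp. The Hsp70 genes are near-identical copies, and how reads that map to several copies were placed is not given in the sources used here, so the assignment of a peak to 1 copy is uncertain.

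Cytoplasmic ribosomal protein genes were reached mostly by shared peaks. Shared gene-end peaks reached 51 of 93 cytoplasmic ribosomal protein genes (54.8%), while the 542 peaks reached 10 (10.8%, interval 5.28 to 18.9%), 6 as the nearest gene. Of the 10 genes, 4 had an end covered and the others had peaks centred 41.5 to 825 bp away. RpS29 had a covering peak of 152 bp, RpL34b one of 147 bp, and RpL18 and RpS15 one of 103 bp each, and the nearest sage-Gal4 peaks were between 7254 bp (RpL34b) and 346404 bp (RpL18) away. Another 4, RpS21, RpL8, RpS14a and RpS10b, named after their values were seen, had a sage-Gal4 peak at an end too, and the gap from the fkh-Gal4-only peak to the nearest sage-Gal4 peak was 964, 684, 1034 and 187 bp. Of these, RpS21, RpL8 and RpS14a were reached through nearer ends of CG2991, msn and RpS14b. The same 80 bp peak thus reached RpS14a and RpS14b, centred 179.5 and 41.5 bp outside them. RpS28a was likewise reached only through a neighbour, Mgat2. RpL34b and RpS28a each have a close paralogue elsewhere in the genome. The RpL34b peak covers an end of its gene and carries the same uncertainty as those of the Hsp70 genes. The RpS28a peak lay wholly outside its gene, where the likeness of the copies was not examined.

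Other housekeeping genes were mostly reached through a neighbour. Of 75 mitochondrial ribosomal protein genes 7 were reached (9.33%, interval 3.84 to 18.3%), but only 1 as the nearest gene. The 4 with the widest peaks had nearer neighbours: Droj2 for mRpS21, Torsin for mRpL30, hzg for mRpS31 and Art3 for mRpS10. Of 48 proteasome genes 2 were reached, Prosbeta2R2 through canoe (cno), an actin-linked junction protein, and Rpn12 through UQCR-C2. Of 32 tRNA synthetase genes 2 were reached, LeuRS-m through Dhc64C and HisRS by a peak centred 716.5 bp from its end. That peak was equally far from an end of Bx, and the tie was counted for Bx. None of these proteasome and tRNA synthetase genes was thus counted as the nearest gene. In the 54 translation factor genes, eIF3f1 had a covering peak of 125 bp. A 183 bp peak covered an end of eIF4G2, centred 38 bp from it and equally far from an end of CG33111. That tie was counted for CG33111. The gene eIF3h was reached through senju and eEF1alpha1 through ERp60. Of 90 oxidative phosphorylation genes 6 were reached, 3 of them as the nearest gene, COX7AL2 and COX6B included, ATPsynF through CG3548 and ATPsynC through CG15561. Both mRNA-processing genes reached of 18 had nearer neighbours, nop5 for x16 and Stip1 for U2af38. Among 31 cell cycle genes 3 were reached, CycB and Orc1 as the nearest gene and E2f1 through InR, and among 10 tubulin genes alphaTub84B was, by an 81 bp peak 115 bp inside.

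Of the 45 lists, 34 had a reached gene and 11 had none. The largest lists with none were 179 chemosensory receptor genes, where an upper limit of 2.04% applies, and 119 cuticle protein genes, with an upper limit of 3.05%; both lie under the background of 5.39%. None of 18 chorion and vitelline membrane genes was reached. Of the markers of other cell types that whole embryos hold, none of 19 muscle, 16 hemocyte, 12 fat body or 10 germline genes was reached, though upper limits of 17.6 to 30.8% leave these small lists uninformative. Of 14 gut markers 2 were reached (14.3%), fkh and bowl, and of 21 neural markers 3 (14.3%), sca, insc and Syt1. Of 14 epidermal markers 1 was (7.14%), grh. The intervals of these gut, neural and epidermal lists hold the background. A peak cannot be assigned to a cell type, since chromatin of whole embryos was used.

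**Figure D5:**
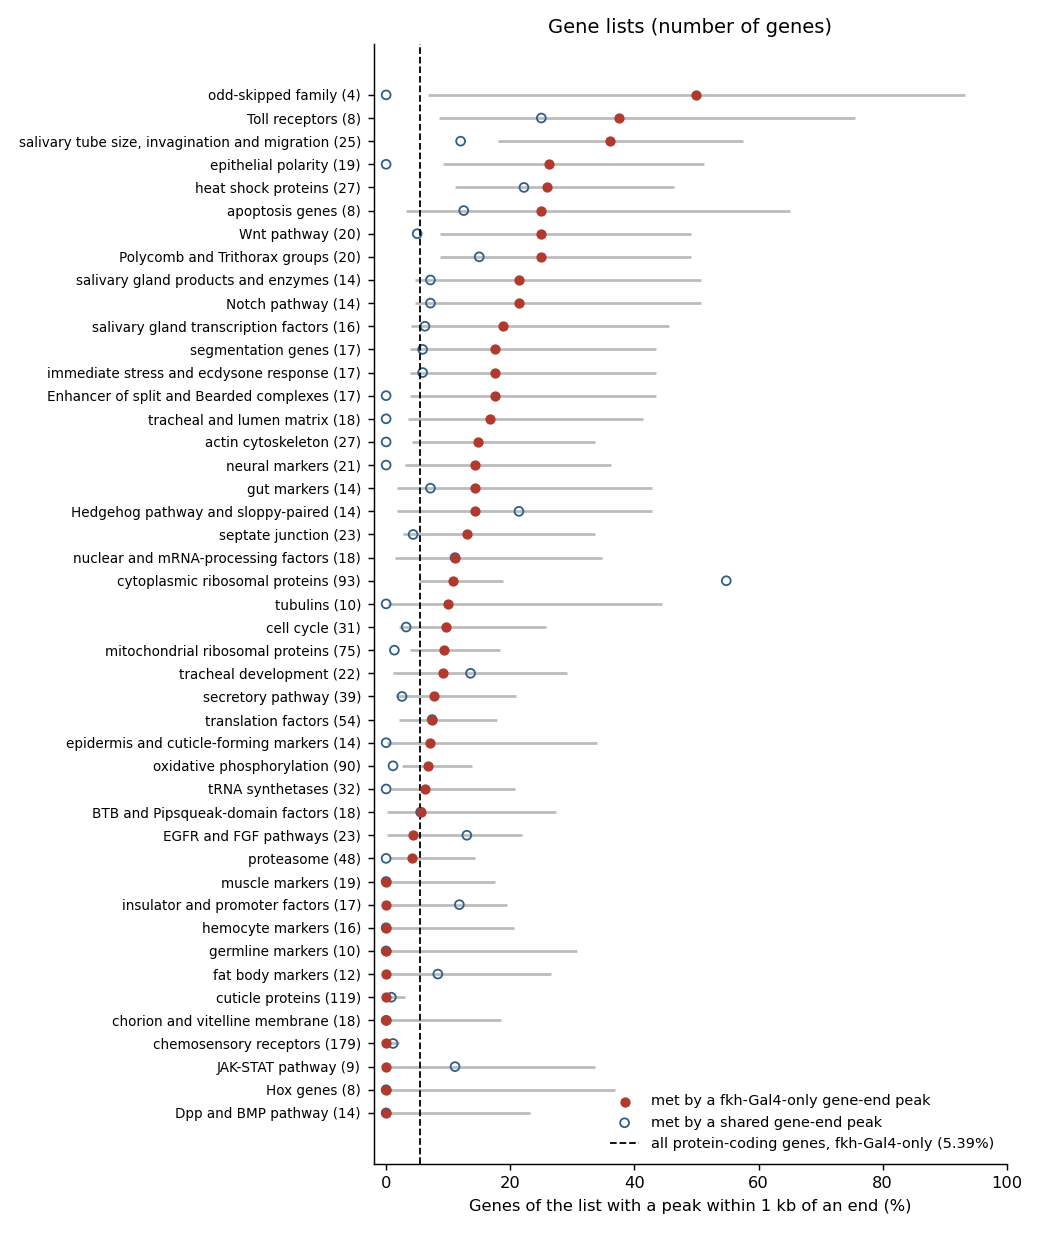
Share of the genes of each list with a peak within 1 kb of an end (horizontal axis, percent), for the 542 fkh-Gal4-only gene-end peaks (filled points with exact 95% intervals of counting error) and for shared gene-end peaks (open circles); the dashed line is the 5.39% of all protein-coding genes reached by the former. Salivary tube genes stand at 36.0% and cytoplasmic ribosomal protein genes at 10.8%, while shared peaks stand at 12% and 54.8%.

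Few genes drew more than 1 of the peaks. Exactly 1 peak reached 692 of the 751 genes, 2 peaks reached 56 and 3 peaks reached CG9331, hng2 and ken. At CG9331 the peaks were 186, 358 and 171 bp wide, the middle one covering the end. At ken, 1 peak of 119 bp lay 80 bp inside the gene and the others, of 114 and 84 bp, lay 77 bp apart beyond the opposite end, nearer to TM4SF. At hng2 the peaks, of 85, 86 and 74 bp, all lay nearer to its neighbours CG9839 and CG9837. Genes with a pair of peaks, chosen for naming after their values were seen, included the insulin receptor InR, where a 177 bp peak covered the end, the limb selector Dll, and the junction protein cno.

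The peaks were spread over the chromosomes. The arms 2L, 2R, 3L, 3R and X held 95, 108, 103, 143 and 90 of them and chromosome 4 held 3, or between 2.36 per Mb on chromosome 4 and 4.46 per Mb on 3R. The share of genes reached ran from 3.75% on chromosome 4 to 6.06% on 3R (interval 5.28 to 6.92%). On 3R, 26.0% of fkh-Gal4-only peaks were at a gene end (interval 22.4 to 29.9%), and on 3L 18.6% (interval 15.5 to 22.1%). The median gap between neighbours was 145649 bp, and 35 of 536 gaps were under 1 kb.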

How the data were processed

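What the authors deposited for each driver is a list of peak positions with the chromosome, start and end of each peak; the values are positions only, with no score, height or read count. BWA, the peak caller MACS2 (2.1.0.20140616) and, as build, dm6 are named per the submitters' processing notes. Not given in the sources used here are the BWA version, the threshold for peaks, the control of the peak calls, the filters and the handling of multiply mapping reads. The 3 collections of each driver were merged per the labels, so there are no replicates and no test.

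Peak starts, deposited 0-based, are printed 1-based. Genes were placed by RefSeq's table for dm6 (Release 6 plus ISO1 MT), which has no strand. Peaks overlap where they share at least 1 bp. The histone array was taken as 2L, 21416953 to 21541681, and the 5S rRNA array as 2R, 19729562 to 19766278. Distances run from the peak centre, and widths from the deposited edges. Exact Clopper-Pearson intervals at 95% cover counting error only and treat genes or peaks as the counted units, although neighbouring genes share peaks.

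The peaks described and the gene lists were chosen with earlier results of these data known. All names matched the gene table except 1 of the salivary gland products list and 2 of the secretory pathway list. Genes in several lists are counted in each list and once in a group of lists. The named genes are rib, fkh, sage, lolal and CrebA; those of the 15 widest peaks; those of the 10 peaks closest to an end; those of the 10 peaks with the smallest gap to a sage-Gal4 peak and of the 5 shared gene-end peaks with the smallest overlap; those reached by 3 or more peaks; and up to 4 of each list by peak width, with the nearer neighbour where there is one. Others are marked as chosen after their values were seen. The rule for choosing the peaks used their position at gene ends and the missing sage-Gal4 overlap, so those are descriptions.

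Alternatives changed the window, the sage-Gal4 rule, the peak width, the merging of close peaks, the use of centres, the arms and the gene given to a peak. Motif, base composition and promoter sequence descriptions were planned but left out for lack of a genome sequence in the sources used. Python 3.11.15, pandas 2.3.3, numpy 2.4.6, scipy 1.17.1 and matplotlib 3.10.9 were used, and the sorting of peaks was tested on simulated data.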

Additional observations from a re-analysis of the deposited data

How the results depend on the processing

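The share of fkh-Gal4-only peaks at a gene end was 21.8% as reported, 17.0% with a window of 500 bp, 28.3% with 2 kb, 19.5% with only the wider fkh-Gal4 peaks (width at or above the list's median) and 24.2% with peaks within 500 bp merged. The median distance to the end, 97.5 bp as reported, was 59 bp, 313.5 bp and 168.5 bp under the first 3 of these. With the wider peaks alone the number of peaks fell from 542 to 222, the genes reached from 751 to 293, and the median width, by construction, rose from 111 to 167 bp. In all other cases the numbers of peaks, genes reached and lists with a reached gene stayed within 1.5 times of those reported, and the share and medians within their intervals. Counts for single lists did move: with a 2 kb window BTB genes went from 1 to 5 and translation factors from 4 to 7. With each peak given to its nearest gene alone, mitochondrial ribosomal genes went from 7 to 1, cytoplasmic ribosomal genes from 10 to 6 and proteasome genes from 2 to 0. Apart from the wider peaks the number of peaks ranged from 423 to 705, and over all alternatives the lists with a reached gene from 27 to 37. Leaving out peaks with another fkh-Gal4 peak within 500 bp, chosen after the data were seen, gave 487 peaks and 710 genes. Single lists rest on few genes: the salivary tube list had 4 to 9 reached genes, the polarity list 1 to 5, the Polycomb and Trithorax list 2 to 7, the heat shock list 5 to 10 and the cytoplasmic ribosomal list 3 to 12. No paired analysis was possible because each driver has 1 merged list and no test was run. Depth is unknown, so a difference between the embryos cannot be told apart from a shorter sage-Gal4 list.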

Other observations

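Non-coding genes were at few of the 542 peaks. Within 100 bp of a peak lay 4 of 290 tRNA genes, each overlapped by its peak: tRNA:Gly-GCC-1-9 on 2R, and tRNA:Glu-CTC-3-6, tRNA:Glu-CTC-3-7 and tRNA:iMet-CAT-1-5 on 3L. tRNA genes are repeated in near-identical copies, so the copy is uncertain. No snRNA or miRNA gene and 1 snoRNA gene lay that near. A long non-coding RNA gene lay within 100 bp of 20 peaks (3.69%). The share was 4.76% in shared gene-end peaks, 1.82% in fkh-Gal4-only peaks inside genes and 5.09% in those between genes. An antisense RNA gene lay within 100 bp of 12 peaks (2.21%), against 1.73%, 1.18% and 0% in the same 3 groups. At Myc, the growth regulator, a 110 bp peak covered the gene's end and overlapped the long non-coding RNA gene lncRNA:CR44999.

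A further 8 gene lists were assembled after the reached genes were seen, so their counts are descriptions of what prompted them. Of all protein-coding genes 5.39% were reached, and 3.63% as the nearest gene. Of 33 V-ATPase subunit genes, whose products acidify organelles, 6 were reached (18.2%, interval 6.98 to 35.5%), 4 of them as the nearest gene. Vha44 and VhaM9.7-c had covering peaks of 143 and 81 bp. Of 11 zona pellucida domain genes 3 were reached (27.3%, interval 6.02 to 61.0%), pio, dpy and miniature (m), each with its end covered. Of 14 genes of heparan sulfate proteoglycans and their modifiers 4 were (28.6%, interval 8.39 to 58.1%), dally, dlp, Notum and sgl, which encodes UDP-glucose dehydrogenase. The commissureless genes comm and comm2, regulators of Robo receptors, had covering peaks of 117 and 104 bp, and the third gene of that family was not reached. Of 22 axon guidance genes 4 were reached (18.2%, interval 5.19 to 40.3%), sli, NetB, Wnt5 and tutl, and shared peaks reached 3. Of 13 Fat and Dachsous pathway genes 3 were (23.1%, interval 5.04 to 53.8%), ds, ft and kibra, with peaks centred 15, 78 and 461 bp from the end. Of 34 tetraspanin genes 4 were reached (11.8%, interval 3.3 to 27.5%), 2 as the nearest gene. Of 5 glycogen metabolism genes 2 were, Glys, with a covering peak of 249 bp, and Glyp.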
